A study of Mus musculus with 7 samples.

Results

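The genes described here are 36 genes of T-cell identity, antigen receptor signalling and costimulation, measured as RNA in mouse spleen after lipopolysaccharide (LPS). A gene was taken when its symbol was on a list of 36 T-cell genes and its mean over the libraries was at least 1 FPKM (sequenced fragments scaled to transcript length and to the mapped fragments of the library). All 36 listed genes met that limit, out of 17920 genes in the deposited table and 11378 with a mean of at least 1 FPKM.

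The study compared the spleens of wild-type mice and of mice lacking GdX, the product of the X-linked gene Ubl4a, which escorts membrane proteins to their insertion machinery. All animals were labelled C57BL/6 and 8 weeks old, and all had received 20 mg/kg LPS, a bacterial cell wall component, into the peritoneum. Wild type and GdX-/- at 90 min had 2 libraries each, wild type at 6 h also had 2, and GdX-/- at 6 h had 1; GdX-/- is written GdX-def. in the plots. The series lists 4 wild-type and 3 GdX-/- mice, the same numbers as the libraries. The genotype is written GdX-/- in the sample labels and GdX-/Y in the treatment text, and neither names a tissue to which the deletion is limited. No mouse without LPS was analysed here, so no level can be set against the resting spleen. RNA came from the crushed organ, although its source is labelled splenocytes, so every value is a level in all spleen cells together. In such bulk RNA, fewer T cells and less RNA per T cell cannot be told apart.

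T cells recognise antigen through a receptor whose chains sit in a complex with the CD3 proteins and the zeta chain, and the kinases LCK and ZAP-70 pass the signal to adaptors such as LAT. CD4 and CD8 are the coreceptors that divide T cells into helper and cytotoxic cells, while CD28 and ICOS give the second signal and CTLA-4 restrains it. Resting T cells keep a set of genes for survival and recirculation (the IL-7 receptor, LEF1, TCF1, KLF2 and S1PR1), and activated cells show CD69, which holds them in the tissue by opposing S1PR1, and the high-affinity IL-2 receptor chain. Several of the genes are not restricted to T cells. B cells also use Ets1, Klf2 and S1pr1, natural killer cells share Cd247, Cd2, Cd96 and Txk, and Cd69 and Il2ra are inducible on many leukocytes.

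The promoters of the CD3 genes are shown because Cd3g and Cd3d are neighbours on chromosome 9 read in opposite directions, and Cd3g passed the test between the times in wild type while Cd3d did not; the difference between them was not tested. Lck is shown as another receptor gene that was lower at 6 h in wild type, and Il2ra as an activation gene whose levels followed another order. RefSeq's promoter table (GRCm38.p6) held an entry for 25 of the 36 genes. Each line gives the 250 bases before the transcription start, 5′ to 3′ on the gene's own strand, with motif matches in capitals.
Cd3g, chr9:44980432-44980681, minus strand: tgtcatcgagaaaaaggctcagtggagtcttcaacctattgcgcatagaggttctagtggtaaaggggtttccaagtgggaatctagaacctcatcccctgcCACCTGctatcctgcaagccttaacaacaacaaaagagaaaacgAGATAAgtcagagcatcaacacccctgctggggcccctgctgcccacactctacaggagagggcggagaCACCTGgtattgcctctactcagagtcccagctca
Cd3d, chr9:44981536-44981785, plus strand: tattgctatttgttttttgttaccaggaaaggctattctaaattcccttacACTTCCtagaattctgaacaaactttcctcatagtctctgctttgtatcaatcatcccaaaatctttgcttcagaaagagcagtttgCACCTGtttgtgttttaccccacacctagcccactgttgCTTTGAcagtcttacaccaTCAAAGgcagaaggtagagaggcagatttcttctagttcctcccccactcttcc
Cd3e, chr9:45009612-45009861, minus strand: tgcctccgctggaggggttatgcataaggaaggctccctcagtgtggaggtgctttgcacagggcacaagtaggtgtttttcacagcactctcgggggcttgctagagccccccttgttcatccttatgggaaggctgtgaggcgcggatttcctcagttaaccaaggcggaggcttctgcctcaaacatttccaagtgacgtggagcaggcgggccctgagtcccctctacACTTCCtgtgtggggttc
Lck, chr4:129573642-129573891, minus strand: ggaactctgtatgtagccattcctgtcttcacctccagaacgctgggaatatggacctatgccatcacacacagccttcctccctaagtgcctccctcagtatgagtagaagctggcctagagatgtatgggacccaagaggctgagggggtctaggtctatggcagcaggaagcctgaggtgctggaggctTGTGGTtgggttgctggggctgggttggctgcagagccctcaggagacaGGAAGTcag
Il2ra, chr2:11642542-11642791, plus strand: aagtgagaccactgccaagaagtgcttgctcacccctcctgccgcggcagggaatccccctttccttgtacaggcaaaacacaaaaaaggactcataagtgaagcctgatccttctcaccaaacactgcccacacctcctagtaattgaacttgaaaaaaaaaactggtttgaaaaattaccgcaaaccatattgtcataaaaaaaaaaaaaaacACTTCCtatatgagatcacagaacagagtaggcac
The motifs searched, on both strands, were the ETS core GGAAGT, the RUNX core TGTGGT, the TCF-LEF core CTTTGA, the E-protein E-box CAGGTG, the GATA core AGATAA and the NF-kB site. The starts of Cd3g and Cd3d lay 1355 bases apart, and that of Cd3e 27825 bases beyond Cd3d. The Cd3g and Cd3d windows both held the E-box. The Cd3d window also held TCF-LEF and ETS matches, while the Cd3g window held the 1 GATA match found among the 25 genes (4% against 10.3%). Of the 25 windows, 9 held the ETS core (36% against 20% of the first-listed windows of all 27025 genes), 6 the E-box (24% against 17.1%), 5 the TCF-LEF core (20% against 14%), 3 the RUNX core (12% against 14.2%) and 0 the NF-kB site (against 0.337%). These are letter matches in a short window and say nothing of binding. The Il2ra start was not found at the same place in the GENCODE M21 transcripts, while those of Cd3g, Cd3d, Cd3e and Lck were.

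Low values step by what 1 fragment is worth, and those steps gave an estimated 17900000 to 20050000 mapped fragments per library, so depth was similar across groups. Ubl4a alone had overlapping ranges, at 4.03 to 10.56 FPKM in GdX-/- and 5.62 to 14.01 FPKM in wild-type libraries. Ubl4a and Gm44504, an overlapping entry, together stood at 5.04 to 11.2 FPKM in the 3 GdX-/- libraries and at 21.02 to 62.98 FPKM in the 4 wild-type libraries, in the direction of the labels. Globin genes took from 7.73% to 30.9% of a library's FPKM sum. The beta-globin entry Hbb-b1 stood at 16577 to 44998 FPKM in the GdX-/- libraries and at 6.7 to 13.8 FPKM in the wild-type libraries, while the ranges of the related entry Hbb-bs overlapped, at 14413 to 38737 FPKM and 16267 to 54520 FPKM. All mice were labelled C57BL/6, and whether the genotypes share the same genetic background apart from Ubl4a was not tested, which applies to every genotype comparison below. Replicate 2 of GdX-/- at 90 min stood apart from the other 90 min libraries: its 8 neutrophil markers summed to 4724 FPKM, against 699 to 1086 FPKM in the other 3. Between its 2 libraries, the GdX-/- group at 90 min had 5 T-cell genes that differed at least 2-fold, against 0 in wild type at 90 min and 3 in wild type at 6 h. Of all genes, 5.92%, 1.23% and 8.76% differed that much in these groups, so over all genes the wild-type 6 h replicates were the farthest apart.

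T-cell RNA was present in every library. The summed level of 13 T-cell markers, all among the 36 genes, lay between 284 and 719 FPKM, and the T-cell genes ranged from Gata3 and Cd28, with means of 1.78 and 2.31 FPKM, to Cd69, with a mean of 549 FPKM. The lowest value among the 36 genes was 0.33 FPKM for Trat1, about 31 fragments, so none of their levels rests on a handful of fragments. The lowest level was in a wild-type 6 h library for 30 of the 36 genes. The heat map of all T-cell genes shows this as a mostly blue block in the wild-type 6 h columns. The same count was not made over all genes. Their median log2(FPKM + 1) was also lowest in replicate 1 of wild type at 6 h. It was 3.239 there, against 3.326 to 3.777 in the other libraries, replicate 2 of wild type at 6 h among them. After quantile normalization, the mean of the 36 genes was 3.68 and 3.737 in the wild-type 6 h libraries, against 4.256 to 4.666 in the others.

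**Figure D1:**
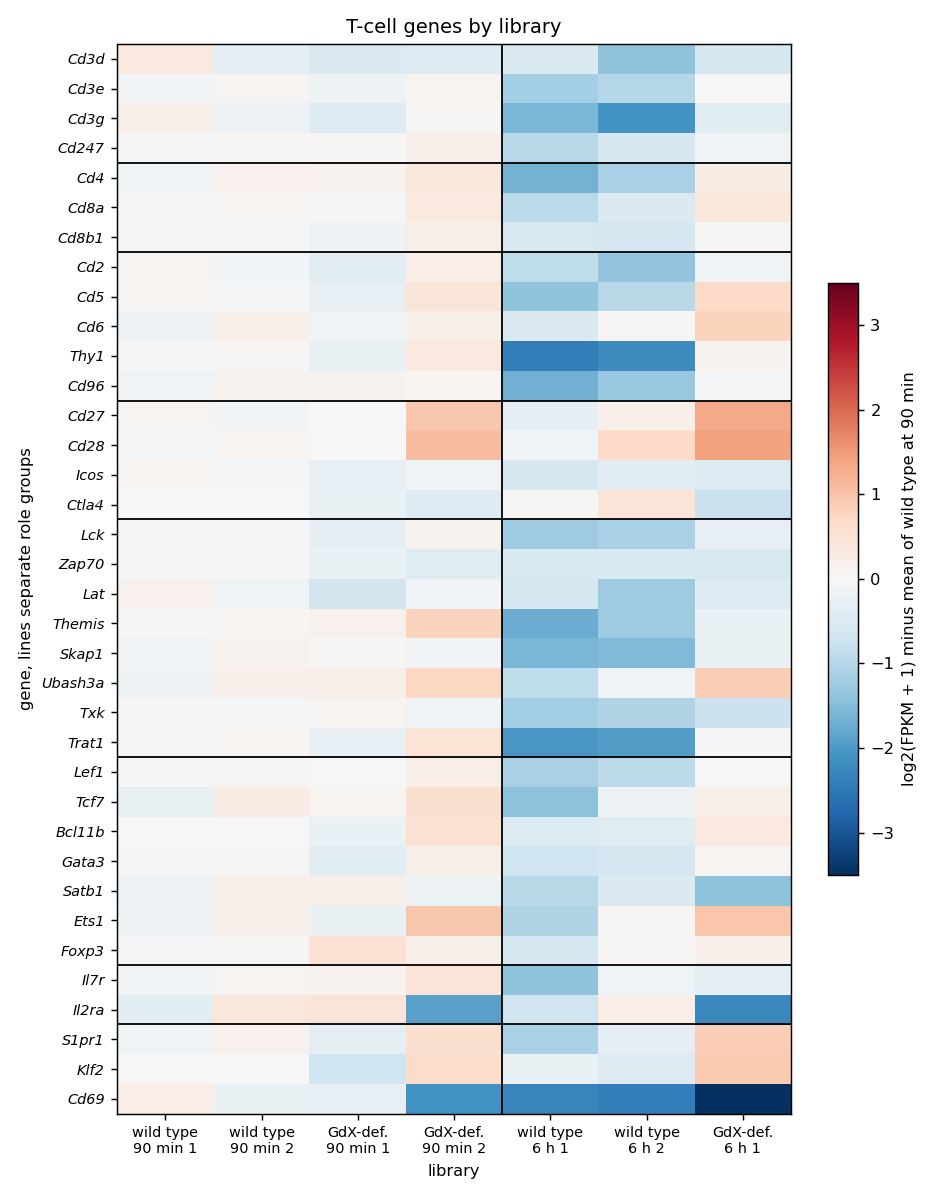
Level of each of the 36 T-cell genes (rows, ordered by role) in each of the 7 libraries (columns), as log2(FPKM + 1) minus the mean of the 2 wild-type libraries at 90 min; red is higher and blue lower. The wild-type 6 h columns are blue for most genes, the GdX-/- 6 h column is near white or red for most, and Cd69 at the bottom is lower in all 3 libraries at 6 h and in replicate 2 of GdX-/- at 90 min.

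The first comparison asked how T-cell genes differed between 90 min and 6 h in wild-type spleen. Of 36 genes, 13 were lower at 6 h and 0 were higher (36.1% of the T-cell genes, against 6.32% of all tested genes called lower and 4.39% called higher, limma adjusted p under 0.05). The median log2 difference of the T-cell genes was -0.78, against 0.05 for all genes. In 27 genes both 6 h libraries lay below both 90 min libraries, and in 1, Ctla4, above (27.6% and 30.3% of all genes).

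Among the receptor chains, Cd3g (Entrez gene 12502), the gamma chain of CD3, stood at 81.5 and 61.1 FPKM at 90 min in wild-type spleen, and at 22.5 and 15.8 FPKM at 6 h. The log2 difference of Cd3g was -1.85 (SE 0.30, limma adjusted p = 0.00734). Cd3e (Entrez gene 12501), the epsilon chain, stood at 33.5 and 38.2 FPKM and then at 15.2 and 17.6 FPKM, a log2 difference of -1.08 (SE 0.26, limma adjusted p = 0.0296). Neither gene overlapped between the times. Cd3g passed in all 15 alternatives, whereas Cd3e lost its call in 5 of 15 (limma adjusted p up to 0.232): without a filter on low genes, after globin-free rescaling, and without the first wild-type 6 h library or either earlier one. The zeta chain gene Cd247, at 32.3 and 34.6 FPKM against 16.6 and 22.01 FPKM, did not pass the threshold. Cd3d, the delta chain gene, did not pass it either. Its replicates differed widely, at 109 and 67.6 FPKM at 90 min and at 60.1 and 31.4 FPKM at 6 h.

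Of the coreceptors, Cd4 passed and the CD8 genes did not. Cd4 stood at 16.4 and 20.3 FPKM at 90 min and at 5.15 and 7.72 FPKM at 6 h. Cd8a, at 24.5 and 27.4 FPKM against 13.1 and 18.04 FPKM, and Cd8b1, at 44.0 and 40.9 FPKM against 28.6 and 27.7 FPKM, were also lower in both libraries, without passing. Whether Cd4 and the CD8 genes differed from each other was not tested.

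Surface receptors held the gene with the smallest p-value of the 36. Thy1 (Entrez gene 21838, chromosome 9), a surface glycoprotein of all mouse T cells, stood at 54.4 and 57.1 FPKM at 90 min and at 9.53 and 11.3 FPKM at 6 h. The log2 difference was -2.32 (SE 0.28, limma adjusted p = 0.00231), larger than the spread within either group. Cd96, an adhesion receptor of T and natural killer cells, stood at 6.44 and 7.70 FPKM and then at 1.5 and 2.20 FPKM (log2 difference -1.51, SE 0.29, limma adjusted p = 0.0152). Cd2, which binds CD48 on partner cells, also passed, at 107 and 92.3 FPKM against 53.4 and 37.8 FPKM. Cd5, a restraint on receptor signalling, fell short at 11.7 and 10.7 FPKM against 3.62 and 5.24 FPKM, and the libraries of its relative Cd6 overlapped.

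Of the 8 signalling genes, all had a difference below 0 and 5 were called lower at 6 h (62.5%, against 6.32% of all genes). Trat1 (Entrez gene 77647, chromosome 16), which stabilises the receptor complex at the surface, stood at 4.26 and 4.76 FPKM and then at 0.33 and 0.42 FPKM (log2 difference -2.0, SE 0.32, limma adjusted p = 0.00685). With a pseudocount of 0.1 in place of 1 the difference was -3.28, since the scale understates the change of so low a gene. Skap1, an adaptor that links the receptor to integrins, stood at 20.4 and 24.02 FPKM and then at 6.59 and 6.99 FPKM (log2 difference -1.57, SE 0.27, limma adjusted p = 0.00915). Themis, a regulator of receptor signal strength during thymic selection, stood at 3.49 and 3.90 FPKM and then at 0.40 and 0.97 FPKM (log2 difference -1.5, SE 0.32, limma adjusted p = 0.0198). Lck, the kinase that starts the relay, stood at 92.4 and 87.7 FPKM and then at 37.5 and 40.05 FPKM (log2 difference -1.19, SE 0.25, limma adjusted p = 0.0202). Txk, a TEC-family kinase, also passed, at 15.1 and 14.0 FPKM against 5.66 and 6.52 FPKM. Zap70, Lat and Ubash3a did not. Zap70, the kinase recruited to the phosphorylated chains, stood at 34.2 and 36.3 FPKM against 24.03 and 24.05 FPKM.

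Costimulatory genes, cytokine receptors and most transcription factors did not pass. None of Cd27, Cd28, Icos and Ctla4 passed, and Cd28 (1.17 and 1.35 FPKM against 1.02 and 2.60 FPKM) overlapped between the times. Of the 7 transcription factors only Lef1 passed, a factor of resting and memory T cells, at 18.5 and 19.8 FPKM against 8.20 and 9.62 FPKM (log2 difference -1.02, SE 0.27, limma adjusted p = 0.0415). Its call was lost in 8 of 15 alternatives (limma adjusted p up to 0.289), among them the fit on only the 4 libraries compared, globin-free rescaling and 5 of the fits that left out a library. Its partner Tcf7, at 53.5 and 76.9 FPKM against 22.9 and 57.04 FPKM, overlapped, and its 6 h libraries differed from each other. Il7r, the receptor chain for the survival factor IL-7, did not overlap but its 6 h libraries also differed widely, at 22.4 and 25.6 FPKM against 8.46 and 21.3 FPKM (log2 difference -0.78, SE 0.39, limma adjusted p = 0.220). Il2ra overlapped widely, at 23.8 and 41.2 FPKM against 19.1 and 36.9 FPKM (log2 difference -0.23, SE 0.66, limma adjusted p = 0.852).

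Cd69 was the activation gene that passed. It stood at 1285 and 937 FPKM at 90 min and at 219 and 203 FPKM at 6 h, a log2 difference of -2.37 (SE 0.50, limma adjusted p = 0.0196). S1pr1, the receptor for exit into the blood that CD69 opposes, did not pass: it stood at 26.8 and 33.6 FPKM at 90 min and at 13.3 and 23.3 FPKM at 6 h. The count of 13 rested on both 90 min libraries: it was 5 when the first of them was left out, 4 when the second was, and 5 when genes of low level were not filtered out. All genes called then made up 3.96%, 4.83% and 3.54%, against 10.7%. Thy1, Cd3g and Trat1 passed in each alternative in which they could be tested, with limma adjusted p at most 0.0477. The other 10 lost their call in 1 or more alternatives. Cd4, Cd2, Cd96, Themis, Txk, Cd3e and Lef1 lost it without either 90 min library and without a filter, Lck without either 90 min library, Skap1 without the second of them and Cd69 without a filter. Cd2 also lost it without the second 6 h library, and Txk without the first and after globin-free rescaling.

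**Figure D2:**
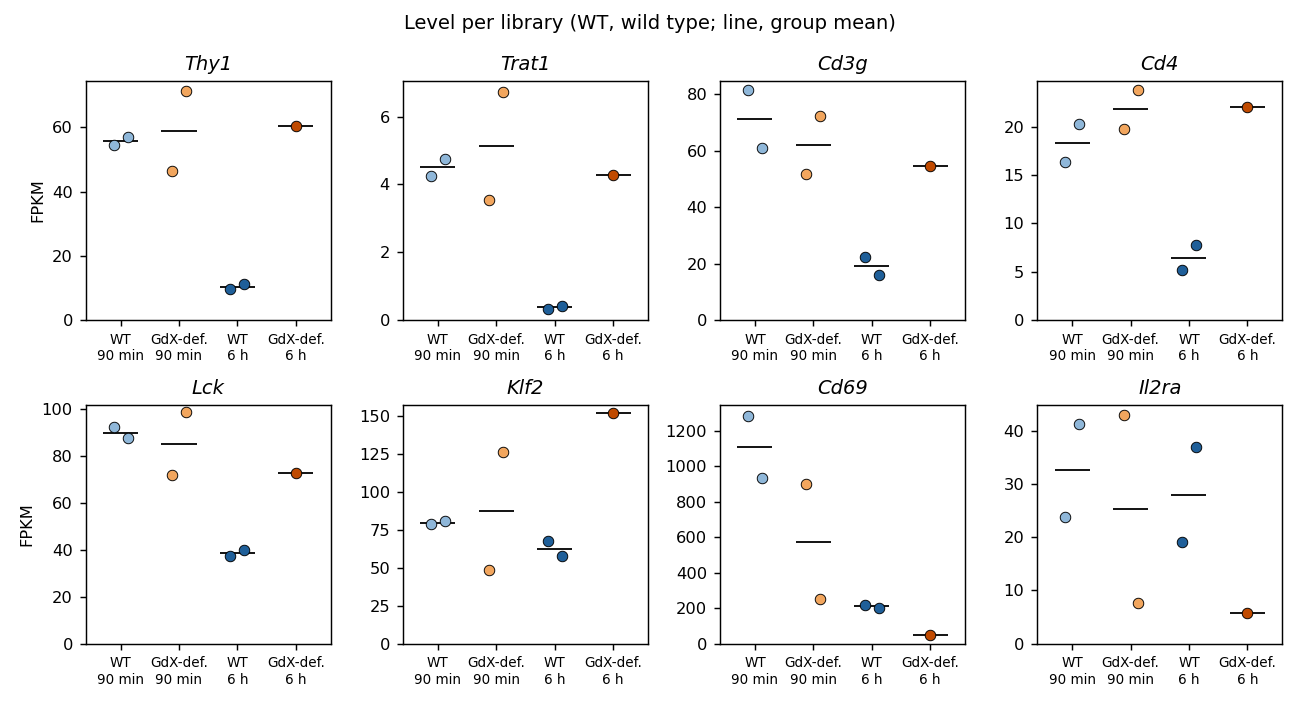
FPKM of 8 T-cell genes in each library, by group; each point is 1 library, the line is the group mean, and each panel has its own axis from 0. Thy1, Trat1, Cd3g, Cd4 and Lck are low in both wild-type 6 h libraries and not in the GdX-/- 6 h library, while Cd69 and Il2ra are lowest in the GdX-/- 6 h library.

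The same step in time was then examined in GdX-/- spleen, where the single later library was compared with 2 earlier ones and was assumed to vary as the replicated groups did. Limma called 0 of the 36 genes and 0 of all genes (0% of 11378), while 2 T-cell genes had a p under 0.05 before adjustment, as did 910 genes in all (8%). The median log2 difference of the T-cell genes was -0.11, against 0.25 for all genes. Its sign rested on 1 library: without replicate 2 at 90 min the median was 0.12, with 22 genes above 0 and 14 below (0.36 for all genes). After removal of the length trend it was -0.36 (0.0033 for all genes). The 6 h library lay above both 90 min libraries for 9 T-cell genes and below both for 14 (56.8% and 15.8% of all genes).

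Thy1 stood at 46.3 and 71.3 FPKM at 90 min and at 60.5 FPKM at 6 h in GdX-/- spleen, and Trat1 at 3.53 and 6.73 FPKM and then at 4.29 FPKM. Cd3g stood at 51.7 and 72.2 FPKM and then at 54.7 FPKM, and Lck at 71.8 and 98.9 FPKM and then at 73.0 FPKM. All 4 of these 6 h values fell between the 90 min replicates. Cd3e, at 31.6 and 38.2 FPKM and then 36.3 FPKM, did so too (log2 difference 0.06, SE 0.31, 95% interval -0.64 to 0.77, limma adjusted p = 0.959). Il7r had a log2 difference of -0.59 (SE 0.48, limma adjusted p = 0.813) and Lef1 one of -0.11 (SE 0.33, limma adjusted p = 0.926). Of the 13 genes called lower in wild type, 8 were not below both 90 min libraries at 6 h in GdX-/- spleen (61.5%, against 43.3% of the 719 genes of all kinds called lower in wild type). The other 5 were: Cd96, Themis, Skap1, Txk and Cd69.

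Cd69 and Satb1 were the genes with a p under 0.05 before adjustment. Cd69 stood at 898 and 251 FPKM at 90 min and at 50.5 FPKM at 6 h (log2 difference -3.21, SE 0.61, limma adjusted p = 0.109). Satb1, a chromatin organiser of T-cell development, stood at 102 and 80.1 FPKM and then at 33.02 FPKM (log2 difference -1.43, SE 0.35, limma adjusted p = 0.198). Il2ra stood at 42.99 and 7.66 FPKM and then at 5.76 FPKM (log2 difference -1.53, SE 0.81, limma adjusted p = 0.727). In the other direction, Klf2, a factor that keeps T cells quiescent, stood at 48.9 and 126 FPKM and then at 152 FPKM, and S1pr1, one of its targets, at 23.6 and 44.7 FPKM and then at 54.98 FPKM. Cd27, a costimulatory receptor of resting T cells, stood at 9.59 and 19.6 FPKM and then at 26.0 FPKM. For all 6 of these genes, replicate 2 at 90 min lay nearer to the 6 h library than replicate 1 did. Leaving out replicate 2 gave 1 call among the 36 genes, leaving out either wild-type library at 6 h gave 2, and leaving out either at 90 min gave 1, with 0.0615% to 2.07% of all genes called.

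Whether the time difference itself differed between genotypes was tested as an interaction. It was positive, a smaller fall or a larger rise in GdX-/- spleen, for 32 of 36 T-cell genes (64.2% of all genes), with a median of 0.88 against 0.19 for all genes. Without replicate 1 of GdX-/- at 90 min these medians were 0.54 and 0.054, and without replicate 2 they were 1.14 and 0.32. Limma called 0 of the 36 (0.0703% of all genes), while before adjustment 10 had a p under 0.05, against 9.98% of all genes. Thy1 came nearest (log2 interaction 2.39, SE 0.44, limma adjusted p = 0.105), followed by Trat1 (1.84, SE 0.50, limma adjusted p = 0.212) and Cd3g (1.69, SE 0.47, limma adjusted p = 0.222). Cd3e (1.15, SE 0.41, limma adjusted p = 0.356), Lef1 (0.91, SE 0.42, limma adjusted p = 0.530) and Il7r (0.19, SE 0.61, limma adjusted p = 0.971) did not pass. Cd69 (-0.83, SE 0.79, limma adjusted p = 0.841) and Il2ra (-1.30, SE 1.04, limma adjusted p = 0.779) had the opposite sign. A missed threshold does not show that the genotypes changed alike: the 95% interval for Thy1 ran from 1.39 to 3.39. There were 2 calls when the first wild-type 6 h library was left out, and 1 call when the second was (1.49% and 2.09% of all genes).

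**Figure D3:**
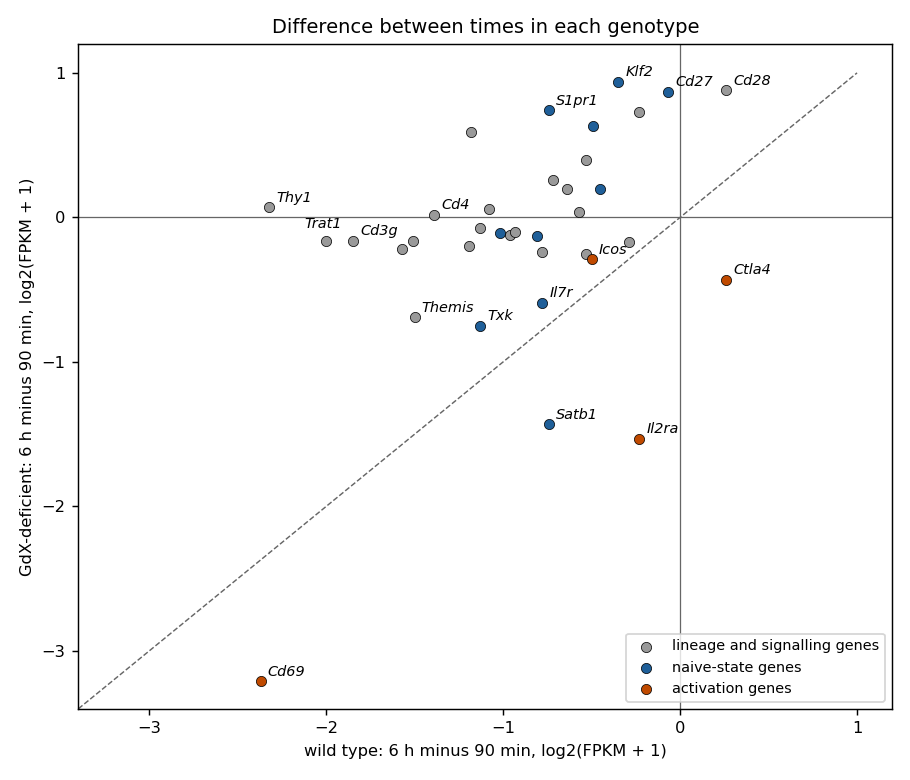
Log2 difference between 6 h and 90 min in wild type (x axis) and in GdX-/- spleen (y axis) for the 36 T-cell genes; the axes share no library, and the dashed line marks equal differences. Of the 36 genes, 32 lie above the line, with Cd3e at -1.08 and 0.06, while Cd69, Il2ra, Satb1 and Ctla4 lie below it.

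At 6 h the single GdX-/- library was set against the 2 of wild type, again assuming that it varies as the replicated groups do. Of the 36 T-cell genes, 4 were higher in GdX-/- spleen and 0 lower (11.1%, against 2.91% of all genes called higher and 1.05% called lower). The median log2 difference was 1.01, against 0.32 for all genes. The GdX-/- library lay above both wild-type libraries for 28 T-cell genes and below both for 5 (54.9% and 25.3% of all genes).

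Thy1 stood at 60.5 FPKM in GdX-/- and at 9.53 and 11.3 FPKM in wild-type spleen at 6 h (log2 difference 2.44, SE 0.34, limma adjusted p = 0.0142). Trat1 stood at 4.29 FPKM against 0.33 and 0.42 FPKM (log2 difference 1.94, SE 0.39, limma adjusted p = 0.0355). Cd4 stood at 22.07 FPKM against 5.15 and 7.72 FPKM (log2 difference 1.66, SE 0.37, limma adjusted p = 0.0435), and Cd5 at 18.2 FPKM against 3.62 and 5.24 FPKM (log2 difference 1.84, SE 0.41, limma adjusted p = 0.0436). Each of the 4 GdX-/- values was more than 2 times the higher wild-type value. Cd3g (1.49), Skap1 (1.33), Cd96 (1.44) and Cd3e (1.10), given as log2 differences, had limma adjusted p from 0.0528 to 0.0716 and did not pass. The SE of Cd3e was 0.31. Lef1 (1.02, SE 0.33, limma adjusted p = 0.0942) and Il7r (0.47, SE 0.48, limma adjusted p = 0.522) did not pass either. Cd3g was called higher in 7 of 13 alternatives, with limma adjusted p from 0.00888 to 0.107 over all 13.

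The 5 genes below both wild-type libraries at 6 h were Cd69, Il2ra, Ctla4, Satb1 and Zap70. Cd69 stood at 50.5 FPKM against 219 and 203 FPKM (log2 difference -2.04, SE 0.61, limma adjusted p = 0.0807). It was called lower in 7 of 13 alternatives, 6 of them fits that left out a library, with limma adjusted p from 0.00402 to 0.191 over all 13. Il2ra stood at 5.76 FPKM against 19.1 and 36.9 FPKM (log2 difference -2.03, SE 0.81, limma adjusted p = 0.141), and Ctla4 at 4.11 FPKM against 8.03 and 11.1 FPKM. Foxp3, the factor of regulatory T cells, stood at 3.08 FPKM against 1.35 and 2.73 FPKM. The count of 4 moved with the wild-type libraries: 7 genes were called when the first wild-type 6 h library was left out (5 higher and 2 lower), 20 when the second was (19 and 1), and 8 when either earlier one was (6 and 2). The same fits called 6.16%, 26.7%, 7.28% and 7.37% of all genes, against 3.96% with all libraries. The count was 0 with low genes kept in (0.502% of all genes) and 2 with a mean of at least 5 FPKM (2.88%). Removing each library's trend on transcript length gave 8 higher and 2 lower (9.63% of all genes). A term for the replicate number gave 20 higher and 2 lower (29.7% of all genes). Quantile normalization gave 2 higher and 1 lower (2.37% of all genes), with Trat1 at 1.30 (limma adjusted p = 0.0579). With a pseudocount of 0.1 the difference of Trat1 was 3.22. Cd4 also lost its call after globin-free rescaling and without either GdX-/- library at 90 min, and Cd5 after quantile normalization, after globin-free rescaling and with a mean of at least 5 FPKM, with limma adjusted p up to 0.0869 for Cd4 and 0.0981 for Cd5 over all alternatives.

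At 90 min, with 2 libraries on each side, limma called 0 of 36 T-cell genes between the genotypes (0.0176% of all genes), while before adjustment only Cd69 among them had a p under 0.05, as did 862 genes in all (7.58%). The median log2 difference was 0.04, against 0.07 for all genes. Its sign turned with the GdX-/- library left out: it was 0.21 without replicate 1, with 26 genes above 0, and -0.17 without replicate 2, with 24 below 0 (0.18 and -0.045 for all genes). The libraries did not overlap for 9 of the 36 genes (47.5% of all genes). Cd247, Themis, Foxp3 and Il7r were on the higher side (24.1% of all genes) and Cd3d, Icos, Ctla4, Zap70 and Cd69 on the lower (23.4%). Cd3e differed by -0.04 (SE 0.26, limma adjusted p = 0.958), with a 95% interval, not adjusted for the number of genes, from -0.62 to 0.54. Il7r differed by 0.28 (SE 0.39, limma adjusted p = 0.782) and Lef1 by 0.10 (SE 0.27, limma adjusted p = 0.890).

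Cd69 stood at 898 and 251 FPKM in GdX-/- and at 1285 and 937 FPKM in wild-type spleen at 90 min (log2 difference -1.21, SE 0.50, limma adjusted p = 0.621). Il2ra was measured at 42.99 and 7.66 FPKM in GdX-/- and at 23.8 and 41.2 FPKM in wild type (log2 difference -0.73, SE 0.66, limma adjusted p = 0.679). The GdX-/- replicates disagreed here more than the genotypes did: replicate 1 was near wild type for Cd69 and above it for Il2ra, and replicate 2 was far below for both. Replicate 2 was above both wild-type libraries for 23 T-cell genes and below both for 7, whereas replicate 1 was above both for 7 and below both for 19. All genes leaned the same way: replicate 2 was above both for 53.1% and below both for 29.9%, and replicate 1 for 28.3% and 43.8%. Without replicate 2 the Il2ra difference was 0.44, above 0. Cd27, Cd28 and Ubash3a showed the reverse order, with Cd28 at 1.23 FPKM in replicate 1 and 3.78 FPKM in replicate 2, against 1.17 and 1.35 FPKM in wild type. Cd28 differed by 0.53 (SE 0.40, limma adjusted p = 0.654).

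With time as a covariate, 3 GdX-/- libraries were set against 4 of wild type, and limma called 0 of 36 T-cell genes (0.0439% of all genes), while before adjustment 10 had a p under 0.05, as did 3071 genes in all (27%). The median log2 difference was 0.42 against 0.16. Cd69 (-1.54, SE 0.39, limma adjusted p = 0.101) had the smallest p, and Il2ra (-1.25, SE 0.52, limma adjusted p = 0.157) and Ctla4 (-0.62, SE 0.25, limma adjusted p = 0.151) shared its sign. Themis (0.78, SE 0.28, limma adjusted p = 0.123) and Cd27 (0.84, SE 0.31, limma adjusted p = 0.128) led the opposite side. Cd3e (0.42, SE 0.26, limma adjusted p = 0.315), Lef1 (0.47, SE 0.25, limma adjusted p = 0.243) and Il7r (0.36, SE 0.29, limma adjusted p = 0.430) were above 0 without passing. Without replicate 1 of GdX-/- at 90 min, 9 T-cell genes were called, 7 higher and 2 lower, along with 14.7% of all genes. When the second wild-type 90 min library was left out, 1 was called, along with 2.13% of all genes.

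With genotype as a covariate, the 3 later libraries were compared with the 4 earlier ones, and 4 T-cell genes were called lower and 0 higher (11.1%, against 2.65% and 2.79% of all genes). They were Cd69 (log2 difference -2.71, SE 0.39, limma adjusted p = 0.00759), Txk (-0.98, SE 0.22, limma adjusted p = 0.0355), Themis (-1.18, SE 0.28, limma adjusted p = 0.0393) and Satb1 (-1.01, SE 0.24, limma adjusted p = 0.0411). Cd3e (-0.62, SE 0.26, limma adjusted p = 0.160), Lef1 (-0.66, SE 0.25, limma adjusted p = 0.124), Il7r (-0.70, SE 0.29, limma adjusted p = 0.154) and Il2ra (-0.75, SE 0.52, limma adjusted p = 0.377) did not pass. In the 4 called genes, each 6 h library lay below the 90 min libraries of its genotype. That pattern was found in 11 of the 36 genes (9.6% of all genes) and 0 the reverse (24% of all genes). The count was 13 without the GdX-/- 6 h library, 8 after quantile normalization, 13 after removal of the length trend and 0 without a filter. It was 1 after globin-free rescaling and when replicate 2 of GdX-/- at 90 min, the first wild-type 6 h library or either earlier wild-type library was left out, and 2 when the second wild-type 6 h library was. Of all genes, 5.44% were called with every library, and from 0.58% (no filter) to 10.6% (without the GdX-/- 6 h library) in these alternatives. Cd69 was called lower in every alternative except the one without a filter (limma adjusted p = 0.0596), whereas Txk lost its call in 7 of 14, Themis in 7 of 13 and Satb1 in 9 of 14.

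Naive-state genes were then set beside activation genes within each library. The 10 naive-state genes were Il7r, Lef1, Tcf7, Satb1, Bcl11b, Ets1, S1pr1, Klf2, Cd27 and Txk, and the 4 activation genes were Cd69, Il2ra, Icos and Ctla4. The mean log2(FPKM + 1) of the naive-state genes exceeded that of the activation genes by 1.76 in the GdX-/- 6 h library and by 1.17 in replicate 2 of GdX-/- at 90 min. In the other 5 libraries the activation genes were the higher set, with naive minus activation from -0.50 to -0.28. The 2 GdX-/- libraries at 90 min thus had opposite signs, with replicate 1 at -0.45. After quantile normalization the same 2 libraries stood at 1.94 and 1.30, with the other 5 from -0.49 to -0.31.

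Both sets differed in the GdX-/- 6 h library and replicate 2 of GdX-/- at 90 min. Their naive-state means were 5.076 and 5.318, against 3.926 to 4.944 in the other 5. Their activation means, 3.313 and 4.15, were below those of the other 5. Klf2, Ets1, S1pr1, Cd27 and Bcl11b were each higher in these 2 libraries than elsewhere, unlike the other naive-state genes. B cells also use Ets1, Klf2 and S1pr1, and B-cell sums peaked in the same 2 libraries. Within the activation set, the gap came from Cd69 and Il2ra more than from Icos and Ctla4. On the log2(FPKM + 1) scale, Cd69 exceeded Cd3e by 0.46 in the GdX-/- 6 h library and by 2.68 in replicate 2 of GdX-/- at 90 min, against 3.46 to 5.22 in the other 5. Il2ra minus Cd3e was -2.47 and -2.18 in those 2 libraries, against -0.47 to 1.03 in the others. Among naive-state genes, Lef1 minus Cd3e lay between -0.92 and -0.72 in the 7 libraries, and Il7r minus Cd3e ranged more widely, from -0.89 in the GdX-/- 6 h library to 0.26 in replicate 2 of wild type at 6 h. Icos, an activation receptor that supports helper T cells, stayed between 4.02 and 7.11 FPKM. Among the naive-state genes, Satb1 went against its set, with its lowest value in the GdX-/- 6 h library.

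**Figure D4:**
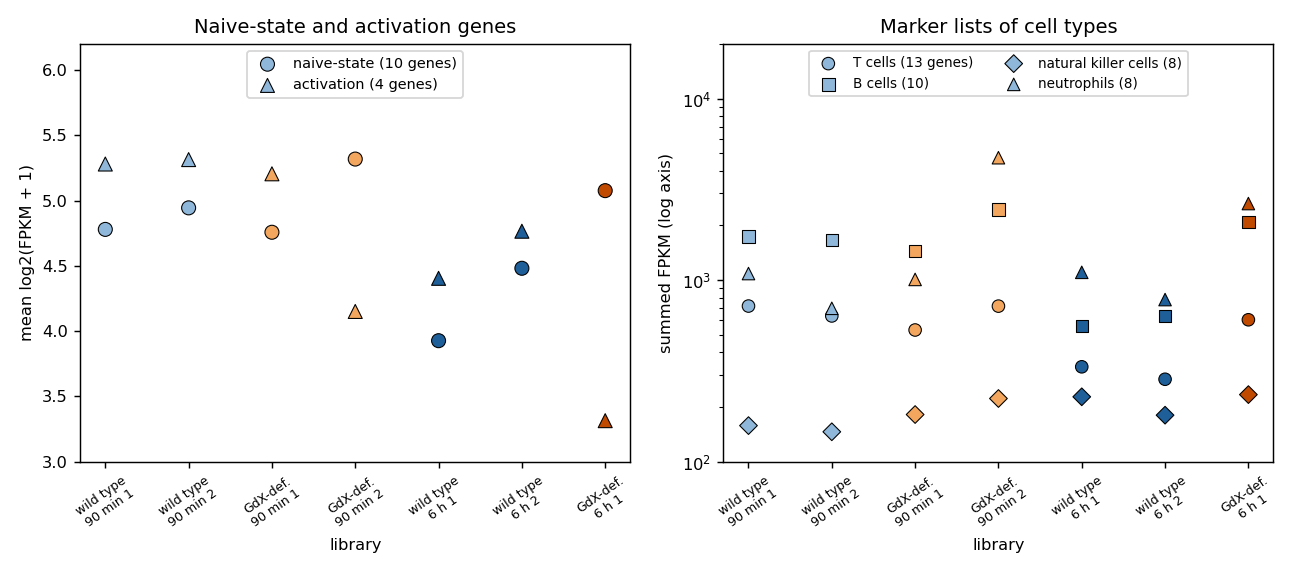
Left, mean log2(FPKM + 1) of 10 naive-state and 4 activation genes in each library; right, summed FPKM of marker lists of 4 cell types on a log axis. The naive-state mean exceeds the activation mean only in replicate 2 of GdX-/- at 90 min and in the GdX-/- 6 h library, and these 2 libraries have the highest neutrophil and B-cell sums.

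Markers of other cells moved with these results. In wild type, the 10 B-cell markers summed to 1741 and 1659 FPKM at 90 min and to 560 and 632 FPKM at 6 h, and stood at 2093 FPKM in the GdX-/- 6 h library. The 13 T-cell markers summed to 719 and 634 FPKM, then to 333 and 284 FPKM, and to 604 FPKM in the GdX-/- 6 h library. Both lymphocyte lists were thus low in the same 2 libraries. The 7 red pulp macrophage markers did likewise, at 639 and 705 FPKM, then 293 and 312 FPKM, and 589 FPKM, and so did the 6 tested dendritic cell markers, at 45.9 and 48.95 FPKM, then 18.2 and 21.4 FPKM, and 40.5 FPKM. Of the 8 natural killer markers, 6 had a difference below 0 in wild type and 2 were called lower, and their mean log2(FPKM + 1) was 3.45 and 3.54, then 3.07 and 3.18, and 3.98. Their summed FPKM went the other way, at 158 and 146, then 227 and 180, and 234 FPKM, with Gzma, a granzyme of cytotoxic cells, at 106 and 88.8, then 193 and 135, and 153 FPKM. Of the B-cell list, 4 of 10 were called lower at 6 h in wild type and 4 of 10 higher in GdX-/- spleen at 6 h; for red pulp macrophages these counts were 4 and 3 of 7, for dendritic cells 5 and 1 of 6, and for the red cell lineage 5 and 5 of 8, with Hbb-b1 among the latter. Of all genes, 6.32% were called lower in the first comparison and 2.91% higher in the second. The 5 stromal and endothelial markers all had differences below 0 at 6 h in wild type, summing to 97.5 and 83.7 FPKM and then to 34.2 and 56.6 FPKM, with 2 of 5 called lower and 0 called by genotype at 6 h. They stood at 85.1 FPKM in the GdX-/- 6 h library, but at 54.8 and 54.6 FPKM in GdX-/- spleen at 90 min. The low Cd69 and Il2ra went with neutrophil sums of 4724 FPKM in replicate 2 of GdX-/- at 90 min and 2640 FPKM in the GdX-/- 6 h library, against 699 to 1103 FPKM elsewhere. The part of these cell lists in the T-cell results was not tested. No pancreatic marker, a sign of neighbouring tissue, exceeded 0.37 FPKM.

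Other genes of the pathway were counted in the same way. Of 32 further genes of the receptor relay, 4 were lower at 6 h in wild type and 0 higher (12.5%, against 6.32% and 4.39% of all genes), and 30 of the 32 had a difference below 0. Dgka, a kinase that ends diacylglycerol signalling, stood at 50.2 and 55.3 FPKM and then at 10.03 and 17.6 FPKM (log2 difference -1.91, SE 0.35, limma adjusted p = 0.0120). Tespa1, Lcp2 (the adaptor SLP-76) and Fyb, its partner, were the others, with log2 differences of -1.39, -1.14 and -1.05. In GdX-/- spleen at 6 h, 2 of the 32 were higher than in wild type (6.25%, against 2.91% of all genes), Dgka at 61.4 FPKM and Grap2, which ties SLP-76 to LAT, at 25.4 FPKM against 3.19 and 7.11 FPKM.

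Of 12 further naive-state genes, 3 were lower at 6 h in wild type and 0 higher (25%, against 6.32% and 4.39% of all genes), and 9 of the 12 had a difference below 0. Ccr7, the receptor that guides T cells into lymphoid tissue, named here after its values were seen, went the other way without passing, at 139 and 160 FPKM and then at 213 and 331 FPKM, with 155 FPKM in the GdX-/- 6 h library. Dapl1 stood at 27.8 and 20.95 FPKM and then at 2.30 and 2.50 FPKM (log2 difference -2.89, SE 0.29, limma adjusted p = 0.00129). Igfbp4 and Btg1, an inhibitor of proliferation, had log2 differences of -1.84 and -1.16. Dapl1 was also the 1 gene of this list called higher in GdX-/- spleen at 6 h (8.33%, against 2.91% of all genes), at 10.2 FPKM. Of 18 tested activation and effector genes, 2 rose and 3 fell with time in wild type (11.1% and 16.7%, against 4.39% and 6.32% of all genes). Ifng, the interferon made by T and natural killer cells, rose from 9.53 and 10.07 FPKM to 35.8 and 42.3 FPKM (log2 difference 1.89, SE 0.38, limma adjusted p = 0.0167). Tbx21, the factor T-bet that drives Ifng, rose from 5.30 and 8.26 FPKM to 24.9 and 33.7 FPKM (log2 difference 1.97, SE 0.32, limma adjusted p = 0.00766). Nr4a3, an immediate response gene of receptor signalling, and Xcl1, a chemokine of cytotoxic cells, were among those that fell, by 2.74 and 1.78 on the log2 scale.

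Ifng and Tbx21 were also the 2 genes of that list called lower in GdX-/- spleen at 6 h (11.1%, against 1.05% of all genes). Ifng stood there at 1.99 FPKM, below its 18.7 and 7.86 FPKM at 90 min (genotype log2 difference at 6 h -3.74, SE 0.46, limma adjusted p = 0.00820), and Tbx21 at 8.01 FPKM (-1.74, SE 0.39, limma adjusted p = 0.0456). At 90 min, 0 genes of the 3 lists were called between genotypes, where 0.0176% of all genes were. Cd40lg and Il2, which T cells make when activated, lay under the limit of 1 FPKM on average, at no more than 1.72 and 0.32 FPKM in a library, and were not tested.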

How the data were processed

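RNA of 7 mouse spleens was sequenced on a BGISEQ instrument after selection or depletion steps, per the labels' protocols. The authors deposited 1 table of FPKM values for 17920 genes in 7 columns. Per the submitters' processing notes, HISAT, HISAT2 2.0.4, Bowtie2, RSEM and GRCm38.p5 were used, with no role or order given. FPKM values carry no counts, so no count test was run.

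Libraries were grouped by genotype and time from the labels. Whether each library is a separate mouse is stated only through the number of mice, so p-values measure the spread between these libraries. The 36 genes and the other gene lists were chosen with earlier results of these data known. Values were analysed as log2(FPKM + 1), with a mean of at least 1 FPKM over all libraries (11378 genes), in limma 3.58.1 (R 4.3.3) with an intensity trend. P-values are 2-sided, with Benjamini-Hochberg adjustment over all 11378 genes and a threshold of 0.05. The 4-group fit gave the comparisons within a time or genotype and their interaction, and additive fits gave those with a covariate. The script was tested on simulated data, in which the interaction test did not recover the changed genes and the comparisons of the single GdX-/- 6 h library with 1 other group recovered a smaller share than the other comparisons. Statistics are printed for the up to 8 T-cell genes with the smallest p in each comparison, for Cd3e, Il7r, Lef1, Cd69 and Il2ra always, and for up to 4 genes of each other list. Replicate numbers were not taken to pair the libraries, since not every pair of groups shared its replicate differences. Alternatives were other pseudocounts, filters and scalings, removal of a transcript length trend, a replicate block and leaving out each library. Promoter windows came from RefSeq (GRCm38.p6).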

Additional observations from a re-analysis of the deposited data

Results flagged for a closer look

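For 5 T-cell genes the time difference ran in opposite directions in the genotypes, with no overlap between 90 min and 6 h in either (13.9%, against 9.14% of all genes). Cd5, a restraint on receptor signalling, was lower at 6 h in both wild-type libraries and higher in the GdX-/- library, with an interaction of 1.77 on the log2 scale (limma adjusted p = 0.265). Cd8a, the coreceptor of cytotoxic T cells, did likewise, with an interaction of 0.97 (limma adjusted p = 0.525), as did S1pr1, the exit receptor, with 1.48 (limma adjusted p = 0.432), and Klf2, its regulator, with 1.29 (limma adjusted p = 0.549). Ctla4, the inhibitory receptor, was higher at 6 h in wild type and lower in GdX-/- spleen, with an interaction of -0.69 (limma adjusted p = 0.725). None of the 5 interactions passed the threshold, and the GdX-/- 6 h group is 1 library, assumed to vary like the others. No group held the 4 libraries that a check for single outlying libraries needs.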

How the results depend on the processing

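Genotype at 90 min gave 0 calls among the T-cell genes under every alternative run, including a crossed replicate block chosen after seeing the data. Few genes of any kind were called there: 0.0176% of all genes in the reported fit, 0% after removal of the length trend and 1.59% in the fit on only the 4 libraries compared. Without a filter on low values, time in wild type gave 5, genotype at 6 h 0 and time with genotype as covariate 0 calls. All genes called then made up 3.54%, 0.502% and 0.58%, against 10.7%, 3.96% and 5.44% in the reported fits. With a mean of at least 5 FPKM genotype at 6 h gave 2 (2.88% of all genes). Quantile normalization, globin-free rescaling and removal of the length trend gave 8, 1 and 13 calls for time with genotype as covariate. All genes called in these 3 fits made up 7.76%, 2.87% and 10.5%. Removal of the length trend gave 10 calls for genotype at 6 h (9.63% of all genes). Replicate differences correlated across genes at 0.77 between the wild-type groups, but at -0.12 and 0.080 between GdX-/- at 90 min and wild type at 90 min and 6 h, so the numbers were not taken to pair the libraries of all groups. With the replicate block, genotype at 6 h gave 22 calls, time in GdX-/- spleen 1, the interaction 1, and time in wild type 16. In the same order, all genes called rose from 3.96% to 29.7%, from 0% to 0.325%, from 0.0703% to 0.703% and from 10.7% to 20.6%. Leaving out 1 library gave 4 to 18 calls for time in wild type, 4 to 20 for genotype at 6 h, 0 to 2 for time in GdX-/- spleen, 0 to 2 for the interaction, 0 to 9 for genotype with time as covariate and 1 to 13 for time with genotype as covariate. In the same fits and order, all genes called ran from 3.96% to 15.6%, 5.51% to 26.7%, 0% to 2.07%, 0% to 2.09%, 0.0176% to 14.7% and 1.35% to 10.6%. Leaving out the GdX-/- 6 h library gives no value for the comparisons that need it. The cause of these shifts was not tested.

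Of the single-gene values, 992 kept direction and side of the threshold, 64 gained a call, 58 lost one and 22 changed sign. None of those 22 passed the threshold. Between genotypes at 90 min, Cd3e became 0.014 after quantile normalization, 0.16 after globin-free rescaling and 0.10 after removal of the length trend, and Lef1 became -0.040 after the last. Leaving out 1 library in turn, this difference ran from -0.17 to 0.093 for Cd3e (0.051 without replicate 2 of wild type at 90 min), from -0.012 to 0.95 for Cd27, from -0.018 to 1.08 for Cd28, from -0.020 to 0.22 for Lef1 and from -1.90 to 0.44 for Il2ra. Over time in wild type, leaving out 1 library took Il2ra from -0.69 to 0.23 (0.15 without replicate 2 at 90 min). Over time in GdX-/- spleen, Cd3e became -0.14 after quantile normalization and -0.18 after length trend removal, and leaving out 1 library took it from -0.071 to 0.20 and Lef1 from -0.23 to 0.012. Leaving out 1 library took Il7r between genotypes at 6 h from -0.14 to 1.09, the Il7r interaction from -0.43 to 0.81, the Cd69 interaction from -1.75 to 0.084, and Cd3e between genotypes with time as covariate from -0.041 to 0.60. The Il7r interaction was -0.11 after quantile normalization and -0.047 after length trend removal. Depth sets little limit here, the lowest T-cell gene value resting on about 31 fragments.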
